A study of Mus musculus with 9 samples.

Results

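Receptors through which hormones, nerve transmitters and local mediators set the tone of a blood vessel were followed in mouse aorta. The set holds 10 genes taken by symbol: the angiotensin receptor gene Agtr1a, the endothelin receptor genes Ednra and Ednrb, the alpha-1 adrenergic receptor genes Adra1a, Adra1b and Adra1d, the vasopressin receptor gene Avpr1a, the prostacyclin receptor gene Ptgir, the natriuretic peptide clearance receptor gene Npr3, and Gucy1a1, which encodes a subunit of the nitric oxide receptor. All 10 were among the 55453 genes of the count table, and all 10 passed the filter on low counts that left 19412 genes for testing. Polyadenylated RNA had been sequenced from 9 aortae of the C57BL/6J strain, 3 for each of 3 genotypes. Itga8-Cre mice carry a CreERT2 recombinase driven from Itga8, the integrin alpha 8 gene, and Myh11-Cre mice carry one driven from Myh11, the smooth muscle myosin gene. CreERT2 enters the nucleus after tamoxifen, and both drivers are used to direct it to smooth muscle rather than to the other cells of the vessel. Wild Type mice served as controls. The study set the Itga8 driver beside the established Myh11 driver. The labels give no age, sex, tamoxifen treatment, transgene copy number or batch.

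Vascular smooth muscle contracts when angiotensin II, endothelin, noradrenaline or vasopressin binds a receptor coupled to Gq, which releases calcium from stores and activates RhoA. It relaxes when prostacyclin raises cyclic AMP, or when nitric oxide and natriuretic peptides raise cyclic GMP. These receptors are not restricted to smooth muscle: endothelin B receptors are also found on endothelium, alpha-1 receptors on fat cells, prostacyclin receptors on leukocytes, and the clearance receptor on fibroblasts and endothelium. In whole tissue, fewer cells of a type and less RNA per cell cannot be told apart.

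Total counts ran from 31419238 to 42497543 per library, and levels are given as CPM, counts relative to a fixed library total, scaled by trimmed mean of M-values (TMM) factors. Of the driver genes, Itga8 reached 475, 147 and 196 CPM in Wild Type mice 1, 2 and 3, with 54.1, 76.5 and 62.9 CPM for Itga8-Cre and 72.4, 298 and 300.3 CPM for Myh11-Cre. Myh11 was at 1371, 1078 and 986 CPM in the Wild Type mice, 616, 745 and 649 CPM with Itga8-Cre and 460, 1045 and 1114 CPM with Myh11-Cre. All Itga8-Cre mice thus lay below all Wild Type mice in Myh11 (log2 fold change -0.77, edgeR adjusted p = 0.699). All 14 smooth muscle markers and all 12 endothelial markers of the tissue labelled aorta were above 0 counts and passed the filter. Other tissue was present in unequal amount. The summed level of 8 cardiac muscle markers was 9301 to 10082 CPM in Itga8-Cre 2, Myh11-Cre 2 and Myh11-Cre 3, against 1775 to 5038 CPM in the other libraries. The summed level of 12 skeletal muscle markers was 7428 to 16968 CPM in Itga8-Cre 3, Myh11-Cre 2 and Myh11-Cre 3, whereas Itga8-Cre 1 had 166 CPM and Myh11-Cre 1 had 93.3 CPM.

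Ednra, Adra1b, Npr3 and Gucy1a1 each had their 3 highest libraries in mice 2 and 3 of Myh11-Cre and mouse 2 of Itga8-Cre, which were also the 3 highest in cardiac muscle markers. Of all genes tested, 3.8% had these 3 highest libraries. The order within the 3 differed between the genes, and for Gucy1a1 the third was only just above Wild Type 2 (67.92 and 67.80 CPM). Because these 4 genes shared their highest libraries, which was seen only after their values were known, the 250 bases before their RefSeq transcription start (GRCm38.p6) are printed 5′ to 3′ on the gene's strand, with capitals marking a match to a searched motif.
Ednra: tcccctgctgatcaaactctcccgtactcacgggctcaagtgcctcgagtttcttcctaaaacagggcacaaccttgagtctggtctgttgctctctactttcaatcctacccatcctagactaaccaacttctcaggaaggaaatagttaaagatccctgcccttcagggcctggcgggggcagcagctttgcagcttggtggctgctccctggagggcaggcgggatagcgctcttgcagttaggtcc
Adra1b: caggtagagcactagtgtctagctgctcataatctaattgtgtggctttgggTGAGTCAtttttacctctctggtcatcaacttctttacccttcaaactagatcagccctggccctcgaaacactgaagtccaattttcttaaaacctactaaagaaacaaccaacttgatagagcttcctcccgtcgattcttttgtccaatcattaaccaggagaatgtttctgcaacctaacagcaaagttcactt
Npr3: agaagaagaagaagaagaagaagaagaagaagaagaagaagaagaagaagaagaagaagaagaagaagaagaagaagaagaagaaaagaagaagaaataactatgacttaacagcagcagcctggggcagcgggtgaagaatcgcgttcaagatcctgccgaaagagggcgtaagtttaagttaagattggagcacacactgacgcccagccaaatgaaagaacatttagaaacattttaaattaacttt
Gucy1a1: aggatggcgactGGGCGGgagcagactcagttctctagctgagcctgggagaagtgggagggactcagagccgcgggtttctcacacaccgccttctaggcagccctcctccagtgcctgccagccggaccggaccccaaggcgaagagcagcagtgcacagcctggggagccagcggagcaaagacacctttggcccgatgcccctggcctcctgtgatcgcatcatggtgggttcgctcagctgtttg
The Ednra stretch lies at chr8:77724453-77724702, that of Adra1b at chr11:43901238-43901487, that of Npr3 at chr15:11907372-11907621 and that of Gucy1a1 at chr3:82145651-82145900, all on the minus strand. The motifs searched on both strands were the GC box GGGCGG, the TATA box TATAAA, the AP-1 site TGANTCA, the MCAT element GGAATG and the CArG box that serum response factor binds, and no matches overlapped. No motif was common to the 4 stretches. Adra1b held 1 AP-1 site, 198 bases before the start, a motif present in 6.75% of 32851 promoters of this length. Gucy1a1 held 1 GC box, 238 bases before the start, a motif in 32.7% of promoters. RefSeq lists 2 starts for each of these 2 genes, and the stretch shown is the one nearest the annotated 5′ end of the gene. Before the other start, Adra1b held a GC box at 185 bases and no AP-1 site, and Gucy1a1 held none of the searched letters. None of the searched letters occurred in the Ednra or Npr3 stretch, and the Npr3 stretch opens with a long AAG repeat. RefSeq promoters were matched for 7 of the 10 genes (not Agtr1a, Adra1a and Adra1d), and none of the 7 held a CArG box, which 1.47% of promoters hold. Outside the 4, a TATA box lay 137 bases before the start of Avpr1a, and 2 GC boxes lay 76 and 13 bases before the start of Ptgir:
Ptgir: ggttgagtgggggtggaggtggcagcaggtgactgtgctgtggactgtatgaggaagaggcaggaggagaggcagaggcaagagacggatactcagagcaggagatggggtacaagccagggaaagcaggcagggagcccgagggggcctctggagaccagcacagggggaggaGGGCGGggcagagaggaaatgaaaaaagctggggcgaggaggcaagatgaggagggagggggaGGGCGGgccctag
That stretch, on the plus strand at chr7:16906240-16906489, is printed because Ptgir followed another order of libraries, given with its values. A match describes letters in a window and says nothing of binding.

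Per kilobase of exon, Gucy1a1 had the highest mean level over the 9 libraries, at 8.71 CPM per kb. Adra1a followed at 7.96, Ednrb at 6.99 and Npr3 at 6.81 CPM per kb. The middle of the order was taken by Adra1d at 4.90 and Agtr1a at 4.56 CPM per kb. Ednra stood at 2.06, Ptgir at 1.41, Avpr1a at 0.991 and Adra1b at 0.702 CPM per kb. Every pair of neighbours in this order overlapped in range over the 9 libraries, and the firmest steps, from Agtr1a to Ednra, from Ednra to Ptgir and from Ptgir to Avpr1a, held in 8 of 9 libraries. The order depends in part on the length used. The annotated exons of Adra1a cover 8728 bases and its longest transcript 4282, with which it would stand first at 16.2 CPM per kb. With longest transcripts Npr3, at 9.28 CPM per kb, would also pass Ednrb at 7.26. Agtr1a, at 5.78 CPM per kb, would pass Adra1d at 4.90. Adra1b rested on the fewest reads, 39 to 140 per library, and Avpr1a on 73 to 168, whereas Adra1a had 1400 to 3557. Over all 9 libraries the range was narrowest in Ednrb, at 1.37-fold, and widest in Adra1b, at 3.37-fold, followed by Agtr1a at 3.33-fold.

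**Figure D1:**
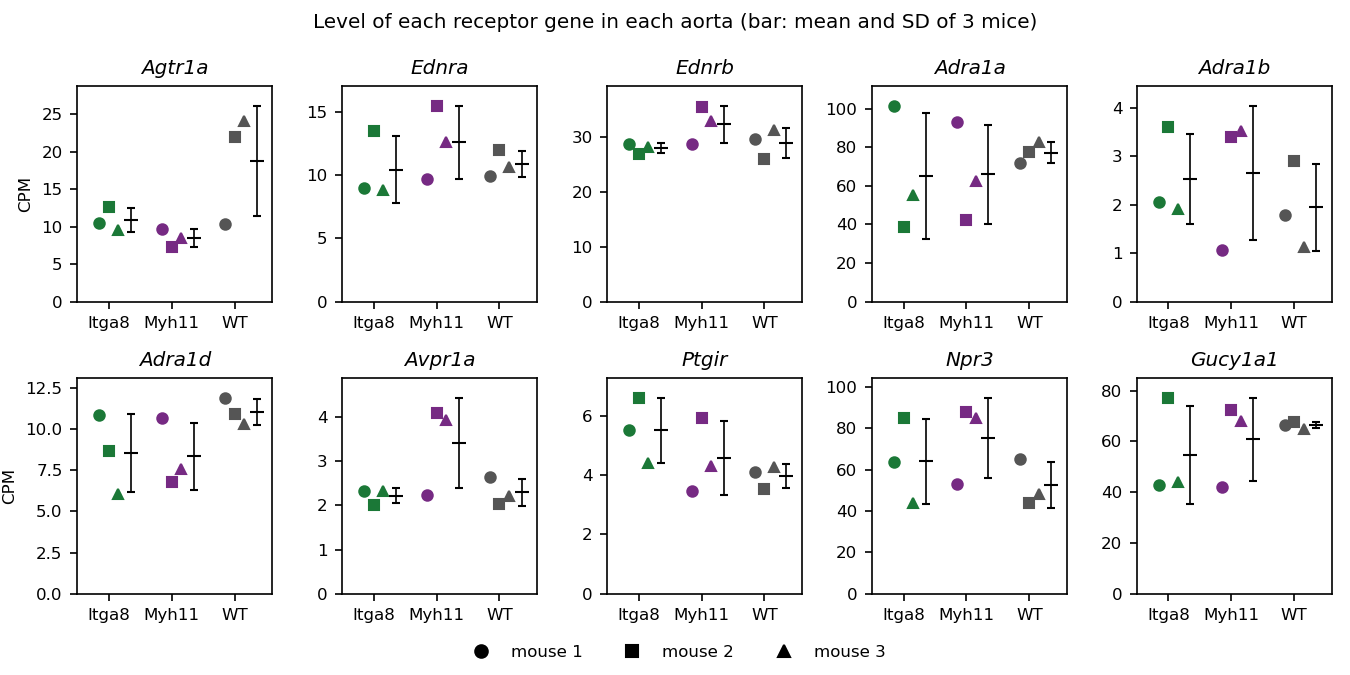
Level of each of the 10 receptor genes in CPM (y axis from 0, linear), by group on the x axis, with symbols for mouse 1, 2 and 3 and a bar for the mean and SD of 3 mice. Agtr1a is the gene whose Myh11-Cre mice (7.22 to 9.69 CPM) all lie below the Wild Type mice (10.4 to 24.1 CPM), and the Ptgir values of Itga8-Cre mice all lie above those of Wild Type mice.

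Genotype was compared for each gene with edgeR's quasi-likelihood test on the counts, adjusting p by Benjamini-Hochberg over 19412 genes with 0.05 as threshold. None of the 10 receptor genes was called in any of the 3 comparisons, against a background of 0.0% of genes called in each. At an unadjusted p under 0.05, 1 of 10 receptor genes stood out for Itga8-Cre against Wild Type (Agtr1a; background 6.78%, 1316 genes), 1 of 10 for Myh11-Cre against Wild Type (Agtr1a; background 16.4%, 3187 genes) and 1 of 10 for Itga8-Cre against Myh11-Cre (Avpr1a; background 9.48%, 1840 genes). These shares are near the background. DESeq2 called 30, 828 and 19 genes in the same order (0.166%, 4.44% and 0.109%), among them 1 receptor gene, Agtr1a, for Myh11-Cre against Wild Type, and limma voom called 0 genes in each. The median log2 fold change of the 10 genes was -0.05 for Itga8-Cre against Wild Type, 0.18 for Myh11-Cre against Wild Type and -0.12 for Itga8-Cre against Myh11-Cre, beside 0.04, 0.01 and 0.01 over all genes tested. The first 2 comparisons share the Wild Type libraries. Groups did not overlap in CPM for 1 of 10 genes for Itga8-Cre against Wild Type (Ptgir; background 11.1%), 1 of 10 for Myh11-Cre against Wild Type (Agtr1a; background 26.0%) and 0 of 10 between the Cre lines (background 12.7%).

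**Figure D2:**
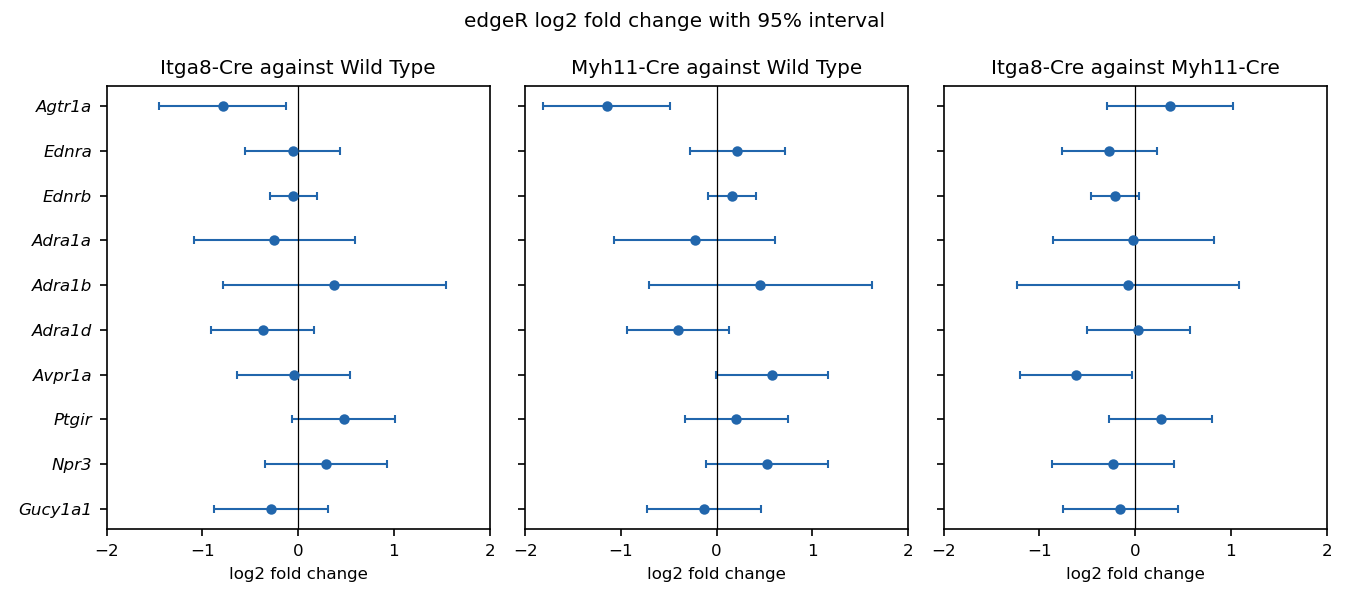
edgeR log2 fold change of each receptor gene (x axis, log2 scale) with its 95% interval (bars) in the 3 comparisons. The intervals exclude 0 for Agtr1a in both comparisons with Wild Type and for Avpr1a between the Cre lines, before adjustment for the 19412 genes tested.

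Agtr1a (ENSMUSG00000049115.15, GRCm38 chromosome 13, 30336441 to 30382867) encodes the angiotensin II type 1a receptor, the main pressor receptor for this peptide in rodents. It was at 10.4, 21.9 and 24.1 CPM in Wild Type mice 1, 2 and 3. In Myh11-Cre mice it was at 9.69, 7.22 and 8.52 CPM. Itga8-Cre mice had 10.5, 12.6 and 9.56 CPM. Wild Type 2 and 3 were the high libraries, above every other mouse, while Wild Type 1 lay among the Itga8-Cre mice. The mean of Myh11-Cre, 8.47 ± 1.23 CPM (SD, n = 3), was 2.22-fold lower than the 18.8 ± 7.37 CPM of Wild Type, with no overlap of mice. The log2 fold change was -1.15 (SE 0.29, 95% interval -1.81 to -0.49), with an edgeR adjusted p of 0.218. DESeq2 gave -1.14 with an adjusted p of 0.012, a call made for 3.09% of genes in this direction. For Itga8-Cre, at 10.9 ± 1.57 CPM, the log2 fold change against Wild Type was -0.79 (SE 0.29, edgeR adjusted p = 0.699), and mice overlapped. Between the Cre lines it was 0.36 (SE 0.29, edgeR adjusted p = 0.681). Without Wild Type 1 the value for Myh11-Cre was -1.44, and without Wild Type 3 it was -0.93. Over all alternatives in edgeR and limma its adjusted p ran from 0.108 to 0.597.

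Markers of nerve and Schwann cells differed in the same direction as Agtr1a. For Myh11-Cre against Wild Type, 11 of 14 were lower, 9 of them at an unadjusted p under 0.05 in edgeR, with a median log2 fold change of -1.44. Their summed level in CPM was 303 to 490 with Myh11-Cre, 468 to 625 with Itga8-Cre and 539 to 893 in Wild Type mice, and none was at 0. The 3 highest libraries of Agtr1a (Itga8-Cre 2, Wild Type 2 and Wild Type 3) and its 3 lowest (Itga8-Cre 3, Myh11-Cre 2 and Myh11-Cre 3) were also those of this marker list. Mesothelial markers went the other way, with 9 of 9 higher in Myh11-Cre and summed levels of 112 to 224 CPM there, against 78.3 to 129 with Itga8-Cre and 32.1 to 67.8 for Wild Type mice. The part of either tissue in the Agtr1a values was not tested. Agtr1b, the near-identical paralog of Agtr1a, had 7 to 22 counts per library, and reads that match both genes can be split in counting. Agtr2, the type 2 receptor gene, had 3 to 13 counts and was not tested.

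Ednra (ENSMUSG00000031616.7, GRCm38 chromosome 8, 77663031 to 77724464) encodes the endothelin A receptor, which mediates constriction by endothelin 1 in smooth muscle. Its level was 9.91, 11.95 and 10.7 CPM in the Wild Type mice, 8.98, 13.5 and 8.85 CPM with Itga8-Cre and 9.66, 15.5 and 12.6 CPM with Myh11-Cre. The high mice sat in both Cre groups and the 3 groups overlapped. The log2 fold change was -0.05 (SE 0.22) for Itga8-Cre against Wild Type, 0.21 (SE 0.22) for Myh11-Cre against Wild Type and -0.27 (SE 0.22) between the Cre lines, with edgeR adjusted p-values of 0.955, 0.635 and 0.682. A noncoding gene on the opposite strand, 4933431K23Rik, shares 91 exon bases with Ednra and had 10 to 58 counts.

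Ednrb (ENSMUSG00000022122.15, GRCm38 chromosome 14, 103814625 to 103844402) encodes the endothelin B receptor, which on endothelium releases nitric oxide and clears the peptide. It was the steadiest of the 10 genes, at 29.7, 26.0 and 31.4 CPM in the Wild Type mice, 28.8, 27.0 and 28.2 CPM with Itga8-Cre and 28.8, 35.5 and 33.0 CPM with Myh11-Cre. For Itga8-Cre against Wild Type its log2 fold change was -0.05 (95% interval -0.30 to 0.20), and it was 0.16 (-0.09 to 0.41) for Myh11-Cre against Wild Type. Between the Cre lines it was -0.21 (-0.46 to 0.04). Per kilobase, Ednra made up 22.7% ± 3.24 of the 2 endothelin receptor genes in Wild Type mice, 22.4% ± 4.89 with Itga8-Cre and 23.0% ± 2.32 with Myh11-Cre (SD, n = 3 each). Single libraries lay between 26.1% and 36.2% with the longest transcript as length, and between 19.5% and 28.1% by exon length. Exact two-sided permutation tests of the share gave p = 1.0 for Itga8-Cre against Wild Type, 0.9 for Myh11-Cre against Wild Type and 0.8 between the Cre lines, where 0.1 is the smallest p that 3 against 3 mice allow.

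Adra1a (ENSMUSG00000045875.13, GRCm38 chromosome 14, 66635251 to 66771168), the alpha-1A receptor gene of sympathetic constriction, varied more within the Cre groups than between groups. It was at 71.8, 77.6 and 82.6 CPM in the Wild Type mice, 102, 38.7 and 55.1 CPM with Itga8-Cre and 93.3, 42.1 and 62.5 CPM with Myh11-Cre. The Wild Type mice lay close together, and each Cre line had 1 mouse above all of them and 2 below. Its log2 fold change was -0.25 (SE 0.37) for Itga8-Cre against Wild Type and -0.23 (SE 0.37) for Myh11-Cre against Wild Type, with edgeR adjusted p-values of 0.864 and 0.770. Itga8-Cre 1 and Myh11-Cre 1, the high mice, were also the highest in white fat markers, with 12014 and 12839 CPM over 10 markers, and in brown fat markers, with 7547 and 7039 CPM over 10 markers. Itga8-Cre 2, the lowest mouse, was lowest in both lists, at 5652 and 2370 CPM.

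Adra1d (ENSMUSG00000027335.9, GRCm38 chromosome 2, 131545850 to 131562283), the alpha-1D receptor gene, is the subtype linked to contraction of the rodent aorta. Its level was 11.9, 10.9 and 10.3 CPM in the Wild Type mice, 10.8, 8.69 and 6.08 CPM with Itga8-Cre and 10.7, 6.78 and 7.58 CPM with Myh11-Cre. The 4 low libraries were all from Cre mice, but mouse 1 of each Cre line reached the Wild Type range. Against Wild Type the log2 fold change was -0.37 (SE 0.24) for Itga8-Cre and -0.40 (SE 0.24) for Myh11-Cre, with edgeR adjusted p-values of 0.713 and 0.408, and 0.03 (SE 0.24) between the Cre lines. An antisense gene, Gm14285, shares 147 exon bases with Adra1d and had 6 to 17 counts.

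Adra1b (ENSMUSG00000050541.14, GRCm38 chromosome 11, 43774606 to 43901210) encodes the alpha-1B receptor. It was at 1.80, 2.91 and 1.12 CPM in the Wild Type mice, 2.06, 3.60 and 1.92 CPM with Itga8-Cre and 1.07, 3.40 and 3.52 CPM with Myh11-Cre. Low and high mice occurred in each group. The log2 fold change was 0.38 (SE 0.51) for Itga8-Cre and 0.46 (SE 0.51, 95% interval -0.71 to 1.62) for Myh11-Cre against Wild Type, with edgeR adjusted p-values of 0.854 and 0.665, and these SEs were the highest among the 10 genes. Leaving out Itga8-Cre 3, Myh11-Cre 2 and Myh11-Cre 3, which leaves Myh11-Cre 1 as the only mouse of its group, turned the second value to -0.86.

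Within each library, Adra1a and Adra1d together supplied most alpha-1 receptor transcript per kilobase. Adra1a took 44.0% to 64.9% of the sum of the 3 genes, Adra1d 31.8% to 45.4% and Adra1b 1.90% to 10.7%. With the longest transcript as length, the Adra1a share was 61.5% to 79.0%, and that of Adra1d was 19.0% to 31.1%. By exon length, the share of Adra1d was 38.1% ± 3.18 in Wild Type mice, 36.3% ± 7.88 with Itga8-Cre and 34.8% ± 2.77 with Myh11-Cre (SD, n = 3 each). Exact two-sided permutation tests gave p = 0.6 and 0.3 for the Cre lines against Wild Type and 1.0 between them. Itga8-Cre 2, the mouse poorest in fat markers, had the highest Adra1d share and the lowest Adra1a share. The level of Adra1d itself, however, tended to be higher where the white fat markers were higher. Pearson's r of log2 CPM over the 9 libraries was 0.668 (exact permutation p = 0.0511, adjusted 0.245).

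**Figure D3:**
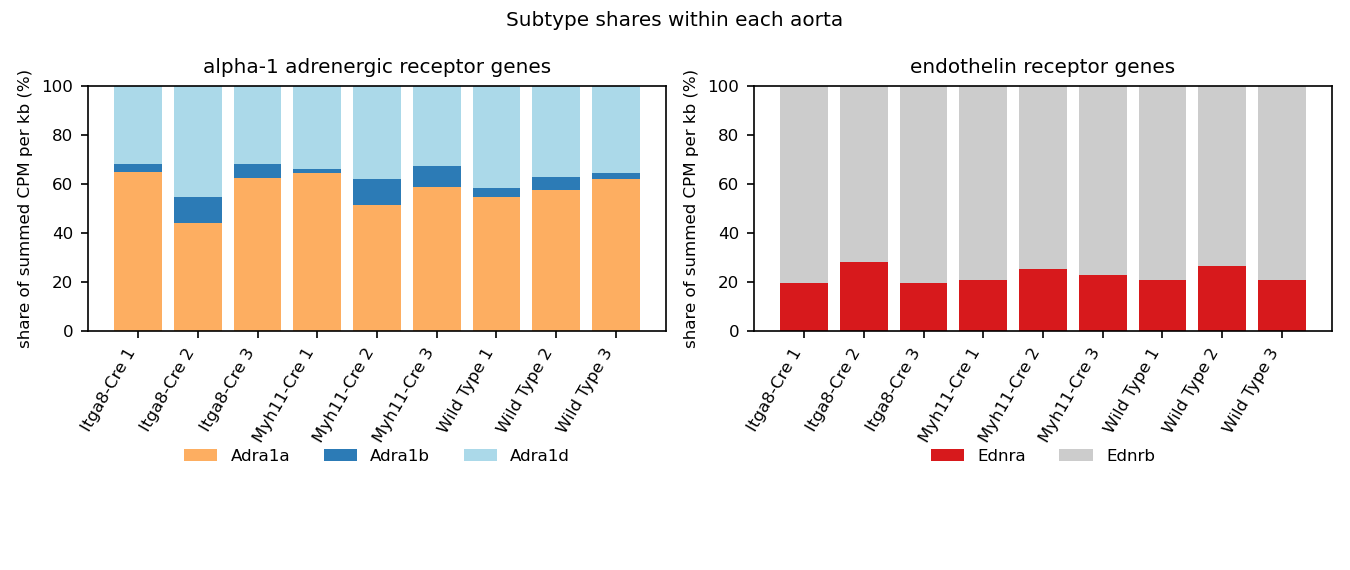
Share of each subtype (y axis, percent of summed CPM per kb, from 0) in each of the 9 libraries, for the alpha-1 adrenergic receptor genes on the left and the endothelin receptor genes on the right. By exon length, Adra1b is the thinnest band in every library (1.90% to 10.7%), and the Ednra band stays between 19.5% and 28.1%.

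Avpr1a (ENSMUSG00000020123.6, GRCm38 chromosome 10, 122448499 to 122453452) encodes the V1a receptor for vasopressin, a Gq-coupled receptor of vascular smooth muscle. It was at 2.64, 2.04 and 2.21 CPM in the Wild Type mice, 2.32, 2.02 and 2.33 CPM with Itga8-Cre and 2.24, 4.08 and 3.93 CPM with Myh11-Cre. Myh11-Cre 2 and 3 were the only libraries above 2.64 CPM, while Myh11-Cre 1 lay with the other groups. The Myh11-Cre mean was 3.42 ± 1.02 CPM and the Itga8-Cre mean 2.22 ± 0.176 CPM (SD, n = 3), a log2 fold change of -0.62 (SE 0.26) for Itga8-Cre against Myh11-Cre with an edgeR adjusted p of 0.521. Against Wild Type, at 2.29 ± 0.309 CPM, the value was 0.58 (SE 0.26) for Myh11-Cre and -0.05 (SE 0.26) for Itga8-Cre, with edgeR adjusted p-values of 0.309 and 0.968. The same 2 mice were highest in the summed smooth muscle markers, at 3627 and 4196 CPM, against 1315 CPM in Myh11-Cre 1. They were also highest in skeletal muscle markers, at 10813 and 16968 CPM. In nerve and Schwann cell markers they were lowest, at 351 and 303 CPM. The part of any of these tissues in the Avpr1a values was not tested.

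Ptgir (ENSMUSG00000043017.9, GRCm38 chromosome 7, 16906490 to 16910905) encodes the prostacyclin receptor, which relaxes smooth muscle through cyclic AMP. It was at 4.11, 3.52 and 4.27 CPM in the Wild Type mice, 5.52, 6.61 and 4.42 CPM with Itga8-Cre and 3.48, 5.93 and 4.32 CPM with Myh11-Cre. All Itga8-Cre mice lay above all Wild Type mice, though Itga8-Cre 3 exceeded Wild Type 3 by little. The means were 5.52 ± 1.09 CPM and 3.97 ± 0.397 CPM (SD, n = 3), a log2 fold change of 0.48 (SE 0.24, edgeR adjusted p = 0.699). For Myh11-Cre against Wild Type it was 0.21 (SE 0.24, edgeR adjusted p = 0.674). Macrophage markers followed the same libraries. For Itga8-Cre against Wild Type 9 of 10 were higher, 4 of them at an unadjusted p under 0.05 in edgeR, and their summed level in CPM was 528 to 1042 with Itga8-Cre, 362 to 999 with Myh11-Cre and 349 to 478 in Wild Type mice, with none at 0. The 3 highest libraries (Itga8-Cre 1, Itga8-Cre 2 and Myh11-Cre 2) and the 3 lowest (Myh11-Cre 1, Wild Type 1 and Wild Type 2) were the same for Ptgir and for this list. The part of macrophages in the Ptgir values was not tested.

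Npr3 (ENSMUSG00000022206.7, GRCm38 chromosome 15, 11839896 to 11907287) encodes the clearance receptor, which removes natriuretic peptides. Its level was 65.0, 43.8 and 48.3 CPM in the Wild Type mice, 63.6, 84.9 and 43.8 CPM with Itga8-Cre and 53.0, 88.0 and 85.1 CPM with Myh11-Cre. The 3 libraries at or above 84.9 CPM were all from Cre mice, yet the other Cre mice lay within the Wild Type range or at its edge. Against Wild Type the fold change on the log2 scale was 0.29 (SE 0.28) for Itga8-Cre and 0.53 (SE 0.28) for Myh11-Cre, with edgeR adjusted p-values of 0.790 and 0.374. Npr1 and Npr2, the cyclase receptors for the same peptides, averaged 64.4 and 39.1 CPM over the 9 libraries. Per kilobase of exon Npr1 and Npr2 stood at 13.5 and 8.37, against 6.81 CPM per kb for Npr3. A noncoding gene on the opposite strand, Gm5144, shares 321 exon bases with Npr3 and had 16 to 41 counts.

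Gucy1a1 (ENSMUSG00000033910.13, GRCm38 chromosome 3, 82092427 to 82145789) encodes the alpha 1 subunit of soluble guanylate cyclase, the receptor that makes cyclic GMP when it binds nitric oxide. It was at 66.6, 67.8 and 65.1 CPM in the Wild Type mice, 42.9, 77.0 and 44.2 CPM with Itga8-Cre and 42.1, 72.5 and 67.9 CPM with Myh11-Cre. The Wild Type mice were nearly equal, whereas Itga8-Cre 1, Itga8-Cre 3 and Myh11-Cre 1 formed a low set at 42.1 to 44.2 CPM. The log2 fold change was -0.28 (SE 0.26) for Itga8-Cre and -0.13 (SE 0.26) for Myh11-Cre against Wild Type, with edgeR adjusted p-values of 0.782 and 0.819. Gucy1b1, the partner subunit, averaged 26.1 CPM, and the alternative alpha subunit Gucy1a2 averaged 7.63 CPM. Per kilobase of exon, Gucy1b1 stood at 6.66 and Gucy1a2 at 1.15, against 8.71 CPM per kb for Gucy1a1. Per kilobase, Gucy1a1 supplied 88.2% ± 0.873 of the 2 alpha subunit genes in Wild Type mice, 86.3% ± 3.22 with Itga8-Cre and 89.3% ± 3.00 with Myh11-Cre (SD, n = 3 each). With the longest transcript as length, single libraries lay between 79.2% and 88.7%. By exon length, exact two-sided permutation tests gave p = 0.4, 0.6 and 0.2 for Itga8-Cre and Myh11-Cre against Wild Type and for the Cre lines against each other.

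Each gene was then set against the smooth muscle of its own library, as its log2 CPM minus the mean log2 CPM of the 14 smooth muscle markers. For Itga8-Cre against Wild Type, groups did not overlap on this scale for 1 of 10 receptor genes, Ptgir, where 28.2% of all genes did not overlap. The Ptgir values were -3.67, -3.88 and -4.57 for Itga8-Cre mice against -5.26, -4.96 and -4.62 for Wild Type mice, a difference of 0.91, for which the exact two-sided permutation test gave p = 0.1. The smooth muscle score itself was 6.14, 6.61 and 6.717 with Itga8-Cre and 7.30, 6.78 and 6.722 in Wild Type mice. Subtracting it therefore raised every gene in Itga8-Cre relative to Wild Type. Without that step the edgeR log2 fold change of Ptgir was 0.48. For Myh11-Cre against Wild Type the gene was Avpr1a (1 of 10, background 5.42%), at -4.78, -5.41 and -5.57 against -5.90, -5.74 and -5.57, a difference of 0.49 with the same exact p. The nearest mice of the 2 groups were almost level in both cases. Between the Cre lines no receptor gene separated (0 of 10, background 3.82%). These counts depend on single mice: leaving out 1 mouse at a time moved them over 1 to 4, 1 to 5 and 0 to 6 in the 3 comparisons, while the share of all genes moved over 32.2% to 48.9%, 6.22% to 66.5% and 4.27% to 81.8%. Counts of 5 and 6 both came without Myh11-Cre 1. On this scale Agtr1a overlapped between Myh11-Cre and Wild Type, with a mean difference of -1.11 (exact permutation p = 0.2). With Acta2 alone in place of the 14 markers, 4, 2 and 1 of 10 genes did not overlap in the 3 comparisons, beside 32.1%, 4.14% and 3.05% of all genes.

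Levels were also set beside scores of 12 marker lists over the 9 libraries, 120 relations in all, and the ones described were chosen after their values were seen. Over all 9 libraries 2 relations passed adjustment by both measures: Agtr1a was lower where the mesothelial score was higher, and Ptgir was higher where the macrophage score was higher. A single further relation, Agtr1a with the nerve and Schwann cell score, passed by Spearman's rho alone. By Pearson's r with exact permutation, the first lost its call without Myh11-Cre 2 or Wild Type 2 (adjusted p = 0.0551 each) or Wild Type 3 (0.177), and the second without Wild Type 2 (0.0536). The permutations did not keep mice within their genotype. Over deviations from group means, r of Agtr1a was -0.766 with the mesothelial score and 0.670 with the nerve and Schwann cell score. For Ptgir with the macrophage score it was 0.947. In these 3 relations some libraries stood apart, so the other coefficients are given for the remaining libraries. Npr3 was higher in libraries with a higher fibroblast score, with Pearson's r 0.842 (exact permutation p = 0.00549, Benjamini-Hochberg adjusted 0.113) and Spearman's rho 0.9 (exact p = 0.00203, adjusted 0.0608). Without the 2 libraries farthest from the median score r was 0.924, and over deviations from group means it was 0.905. Adra1a and the white fat score gave r 0.809 (exact permutation p = 0.00878, adjusted 0.132) and rho 0.817 (exact p = 0.0108, adjusted 0.214), and r was 0.626 without the 2 farthest libraries. Over deviations from group means, r of Adra1a with the white fat score was 0.841. Neither the Npr3 nor the Adra1a relation passed adjustment. Ptgir and the macrophage score were high together in 3 libraries that stood apart. Within the other 6 libraries r was 0.914 (exact permutation p = 0.0181, adjusted over 24 such relations 0.162) and rho 0.943 (exact p = 0.0167, adjusted 0.190), and r was 0.824 without the 2 farthest. Agtr1a stood apart in Wild Type 2 and 3. Within the other 7 libraries its r with the nerve and Schwann cell score was 0.821 (exact permutation p = 0.0202, adjusted 0.162) and its rho 0.964 (exact p = 0.00278, adjusted 0.0667), and r was 0.989 without the 2 farthest. In the same 7 libraries its r with the mesothelial score was -0.875 (exact permutation p = 0.0121, adjusted 0.162) and its rho -0.857 (exact p = 0.0238, adjusted 0.190), and r was -0.851 without the 2 farthest. None of the relations within these smaller sets passed adjustment. Their adjustment covered only Ptgir and Agtr1a, which had been picked from the 120 relations in the same libraries. They are therefore a description and no separate evidence. For Ednra, Adra1b, Npr3 and Gucy1a1 against cardiac markers the 3 cardiac-rich libraries stood apart, so no coefficient is given. Avpr1a was lower where the nerve and Schwann cell score was higher. Its exact permutation p by Pearson's r, 0.00432 (adjusted 0.113), was below those of the Npr3 and Adra1a relations. It passed adjustment by neither measure. Myh11-Cre 2 and Myh11-Cre 3 stood apart there, with the highest Avpr1a and the lowest score, so no coefficient is given.

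**Figure D4:**
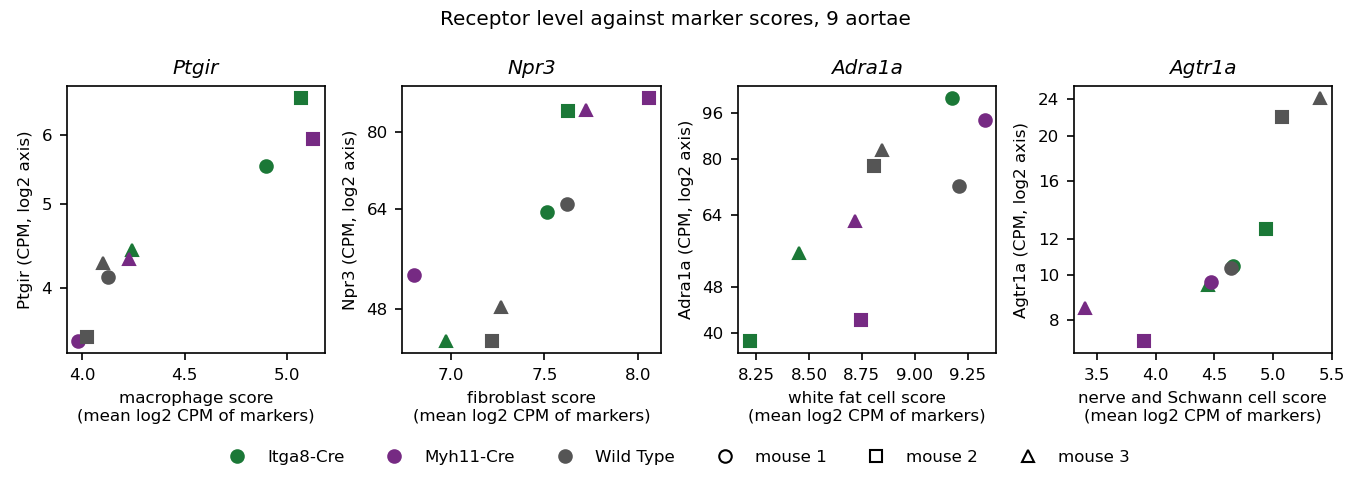
Level of 4 receptor genes (y axis, CPM on a log2 axis) against the score of a marker list in the same library (x axis, mean log2 CPM of its markers), with colour for group and symbol for mouse, 9 libraries in each panel. Ptgir is highest in the 3 libraries with the highest macrophage score (5.52 to 6.61 CPM), and Agtr1a is highest in Wild Type 2 and 3, which also have the highest nerve and Schwann cell scores.

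Other genes of these pathways, from lists chosen for this tissue, gave no call in edgeR in any comparison (0 of 28 ligand and processing genes, 0 of 19 other receptors of the same ligands, 0 of 32 receptors of other vasoactive ligands, 0 of 30 genes of the G protein and calcium arm and 0 of 26 of the cyclic nucleotide arm). At an unadjusted p under 0.05 for Myh11-Cre against Wild Type, where 16.4% of all genes reach it, 4 ligand and processing genes were higher and 7 lower, and 1 of the other receptors was higher and 7 lower. Agt, which encodes the angiotensin precursor, averaged 4.72 ± 0.822 CPM with Myh11-Cre against 2.18 ± 0.288 CPM in Wild Type mice (SD, n = 3 for these and the pairs that follow), a log2 fold change of 1.12 (edgeR adjusted p = 0.218). Th, the enzyme that starts noradrenaline synthesis, was at 22.5 ± 13.9 against 88.0 ± 40.1 CPM, and Maoa, which degrades noradrenaline, at 38.0 ± 17.3 against 120.4 ± 51.9 CPM. Among receptors, the alpha-2 adrenergic receptor genes Adra2a and Adra2b stood at 2.44 ± 0.769 against 6.17 ± 0.980 CPM and 2.01 ± 0.465 against 4.39 ± 1.27 CPM. Ptgfr, the prostaglandin F receptor gene, was at 31.97 ± 6.49 against 15.9 ± 2.14 CPM. These 6 genes were named for having the smallest p of their lists in this comparison. In each, all Myh11-Cre mice lay on 1 side of all Wild Type mice, as 26.0% of genes did. Picking by p favours such genes, so no excess can be read from this. Th belongs to the nerve marker list as well.

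Downstream, Rgs4, which shortens Gq signals, averaged 20.3 ± 2.02 CPM with Myh11-Cre against 38.8 ± 8.45 CPM in Wild Type mice (log2 fold change -0.93, edgeR adjusted p = 0.218). Of the G protein and calcium genes, 8 of 30 had a higher value and 22 a lower one in this comparison, with a median log2 fold change of -0.15 beside 0.01 for all genes. Prkca, a protein kinase C gene, was at 31.2 ± 1.22 against 45.6 ± 8.76 CPM, and Plcb3, a phospholipase C gene, at 59.2 ± 3.16 against 74.6 ± 6.68 CPM. Of the cyclic nucleotide genes 10 of 26 had a higher value and 16 a lower one, with Adcy5, an adenylyl cyclase gene, at 114 ± 22.8 against 170.4 ± 22.3 CPM and Pde1b, a phosphodiesterase gene, at 8.06 ± 0.707 against 10.7 ± 0.782 CPM. For receptors of other vasoactive ligands, S1pr3 was at 21.0 ± 1.37 against 29.8 ± 3.11 CPM and P2ry2, an ATP and UTP receptor gene, at 17.0 ± 4.09 against 10.02 ± 1.96 CPM. Adora2b, an adenosine receptor gene, averaged 0.846 ± 0.406 CPM with Myh11-Cre and 0.398 ± 0.0821 CPM in Wild Type mice. After adjustment none of these genes was called.

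For Itga8-Cre against Wild Type the same lists held, at an unadjusted p under 0.05 (background 6.78%), no ligand or processing gene, and 3 higher and 3 lower among the other receptors of the same ligands. Adrb1, the beta-1 adrenergic receptor gene, averaged 11.6 ± 2.34 CPM with Itga8-Cre against 19.6 ± 4.99 CPM in Wild Type mice (log2 fold change -0.75, edgeR adjusted p = 0.699). Ptger4 and Ptger2, receptors for prostaglandin E2 that raise cyclic AMP, stood at 15.6 ± 1.09 against 12.4 ± 1.20 CPM and 3.28 ± 0.826 against 2.00 ± 0.409 CPM. Among receptors of other ligands, Adora2b was at 0.890 ± 0.220 against 0.398 ± 0.0821 CPM and Ramp3, a receptor partner protein gene, at 1.059 ± 0.108 against 0.642 ± 0.147 CPM. In the G protein and calcium arm 4 genes were higher and 6 lower at that level, with Rgs4 at 24.9 ± 5.82 against 38.8 ± 8.45 CPM, Rgs2 at 79.2 ± 21.9 against 130.5 ± 31.8 CPM and Ppp1r14a, an inhibitor of myosin phosphatase, at 6.97 ± 1.04 against 11.01 ± 2.21 CPM. The cyclic nucleotide arm had 3 lower and none higher, led by Adcy9 at 38.3 ± 6.57 against 57.2 ± 8.87 CPM, Adcy5 at 114.8 ± 20.5 against 170.4 ± 22.3 CPM and Pde3a at 71.2 ± 10.1 against 98.9 ± 9.12 CPM. Smooth muscle markers had lower values in 12 of 14 cases in this comparison, with a median log2 fold change of -0.50, summed levels of 1460 to 2215 CPM with Itga8-Cre against 2034 to 3319 CPM for Wild Type, and none at 0. Their part in these values was not tested.

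Between the Cre lines, where 9.48% of genes reached an unadjusted p under 0.05, Agt averaged 2.56 ± 0.390 CPM with Itga8-Cre against 4.72 ± 0.822 CPM with Myh11-Cre (log2 fold change -0.89, edgeR adjusted p = 0.521). Pnmt, the enzyme that makes adrenaline from noradrenaline, was at 0.265 ± 0.0837 against 0.866 ± 0.451 CPM. Edn3, an endothelin peptide gene, was at 2.02 ± 0.457 against 1.15 ± 0.280 CPM. Among receptors, Adra2a stood at 4.35 ± 0.864 against 2.44 ± 0.769 CPM and Ptger4 at 15.6 ± 1.09 against 12.6 ± 1.056 CPM, and among those of other ligands P2ry2 was at 11.2 ± 1.82 against 17.0 ± 4.09 CPM, Hrh2, a histamine receptor gene, at 3.49 ± 0.451 against 2.49 ± 0.425 CPM and S1pr3 at 26.4 ± 4.63 against 21.0 ± 1.37 CPM. In the G protein and calcium arm 6 of 30 genes were higher in Itga8-Cre at that level and none lower. Arhgef1, an activator of RhoA, was at 149 ± 23.5 against 96.3 ± 11.3 CPM, Plcb2 at 21.1 ± 5.96 against 12.9 ± 0.941 CPM and Itpr3, a calcium release channel gene, at 76.2 ± 10.4 against 58.9 ± 4.56 CPM. In the cyclic nucleotide arm 1 gene was higher, Pde1b, at 11.9 ± 2.89 against 8.06 ± 0.707 CPM.

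The genes whose pattern over the 9 libraries was most like that of a receptor gene were found by the root mean square distance of centred log2 CPM, among 13792 genes with a mean of at least 1 CPM. Ednrb, with a spread of only 0.142 (SD of log2 CPM), had the nearest neighbours, Pak4 at 0.0614 and Klhdc2 at 0.0664. Ednra was nearest to Plxnb1 at 0.0737 and Mtr at 0.0883. Ptgir lay at 0.0772 from Naip2 and 0.0942 from Nfam1, and Avpr1a at 0.0839 from Lgalsl and 0.0998 from Mall. Gucy1a1 was nearest to Arhgap44 at 0.0893 and Arhgef10l at 0.109. More distant were the neighbours of Agtr1a (Dgki at 0.129, Atp6v1g2 at 0.139), Adra1a (Cmtm4 at 0.1305, Slc36a2 at 0.137) and Npr3 (Fbln2 at 0.151, Dcn at 0.163). Adra1b, the gene with the fewest reads, had no closer neighbours than Mdfi at 0.259 and Adamts15 at 0.281. Distances depend on each gene's own spread and depth and are given as a description.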

How the data were processed

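Messenger RNA of 9 whole mouse aortae was sequenced, with 3 separate mice in each of 3 genotypes. The authors deposited counts per gene, and these whole numbers were used for every test. The submitters' processing notes list STAR 2.7.0f, featureCounts, Subread 1.6.4, DESeq2, fastp 0.20.0 and Salmon 0.13.1, with GRCm38.p6 as genome, without saying what each did. The sources used here do not give a strand setting for the counting, and counts of genes that overlap on opposite strands are uncertain for that reason.

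Counts were fitted in R 4.3.3 with edgeR 4.0.16 (filterByExpr by group, TMM factors, group means over all 9 libraries, robust quasi-likelihood, common biological coefficient of variation 29.4%), with Benjamini-Hochberg adjustment over 19412 genes and a threshold of 0.05. As alternatives DESeq2 1.42.0 and voom in limma 3.58.1 were used. The fit was also run on counts simulated from its own estimates of spread. That run held no unequal tissue content, so it checks the code and not the calls in these aortae. CPM per kb used exon lengths of GENCODE M21. Shares, scores (mean log2 CPM, prior count 0.5) and correlations were tested by exact permutation. Of the genes outside the set, the text names up to 3 per pathway list and comparison with the smallest p (where under 0.05 unadjusted), the 2 nearest in pattern to each receptor gene (those of Adra1d are not reported here), close relatives of the receptor genes and overlapping genes. The receptor genes and all lists were chosen with earlier results of these data known.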

Additional observations from a re-analysis of the deposited data

How the results depend on the processing

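Of 600 receptor gene fold changes recomputed under other settings, 554 kept their direction and side of the threshold, 45 changed sign and 1 passed the threshold (Agtr1a under DESeq2), and 14 of 30 fold changes never changed sign. No fold change that changed sign had been above 0.58 in size, and the cause was not tested.

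Genes called numbered 0 in each comparison, but 30, 828 and 19 with DESeq2 (Itga8-Cre against Wild Type, Myh11-Cre against Wild Type, and between the Cre lines), with 1 receptor gene in the second. For Myh11-Cre against Wild Type 1 gene was called without the filter and 1 with the fat score as covariate, which also gave 1 between the Cre lines. The labels do not say whether same-numbered mice are paired. Of 9 same-numbered pairs, 5 had residual correlations over 0.1 (range 0.0445 to 0.39), while differently numbered pairs ran from -0.342 to 0.246. In both other groups, 7 of 9 libraries correlated best with their own number. With mouse number as a replicate block 0, 1 and 0 genes and no receptor gene were called. Leaving out Itga8-Cre 1 and Myh11-Cre 1, chosen after seeing the data, gave 265 calls for Myh11-Cre against Wild Type. Leaving out Itga8-Cre 3, Myh11-Cre 2 and Myh11-Cre 3, also chosen then, gave 1 there and 1 between the Cre lines, with 1 Myh11-Cre mouse left, whose spread is taken from the remaining libraries.

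Against Acta2 instead of the smooth muscle score, 4, 2 and 1 receptor genes did not overlap, and 32.1%, 4.14% and 3.05% of all genes. Sign changes for Itga8-Cre against Wild Type were Ednra 0.062, Ednrb 0.0045 and Avpr1a 0.18 with the smooth muscle covariate, and Ednra 0.019 and 0.038 without the first and second set of libraries. For Myh11-Cre against Wild Type they were Gucy1a1 0.074 without the first set, and Ednra -0.16, Ednrb -0.0094, Adra1a 0.27, Adra1b -0.86, Avpr1a -0.028 and Ptgir -0.19 without the second. Between the Cre lines they were Adra1a 0.0013 (upper quartile) and 0.29 (fat covariate), Adra1b 0.038 (voom), Adra1d -0.0044 (RLE factors) and -0.010 (DESeq2), then Adra1b 0.55, Adra1d -0.14, Npr3 0.024 and Gucy1a1 0.10 with the smooth muscle covariate, and Ednra 0.20, Adra1b 1.39, Adra1d -0.14, Npr3 0.47 and Gucy1a1 0.49 without the second set.

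Leaving out 1 mouse at a time moved log2 fold changes for Itga8-Cre against Wild Type over -0.29 to 0.042 (Ednra), -0.13 to 0.0096 (Ednrb) and -0.13 to 0.053 (Avpr1a). For Myh11-Cre against Wild Type the ranges were -0.56 to 0.014 (Adra1a), -0.019 to 0.37 (Ptgir) and -0.27 to 0.079 (Gucy1a1), and between the Cre lines -0.50 to 0.32 (Adra1a), -0.45 to 0.17 (Adra1b) and -0.18 to 0.25 (Adra1d). Differences in the Ednra share ran over -3.08 to 1.61, -0.816 to 2.23 and -3.44 to 0.826 percentage points in the 3 comparisons, in the Adra1d share over -6.38 to 0.442 (Itga8-Cre against Wild Type) and -3.08 to 3.74 (between the Cre lines), and in the Gucy1a1 share over -0.109 to 2.73 (Myh11-Cre against Wild Type). Receptor genes not overlapping against the smooth muscle score ran over 1 to 4, 1 to 5 and 0 to 6, where 32.2% to 48.9%, 6.22% to 66.5% and 4.27% to 81.8% of all genes did not overlap. Depth limits Adra1b most, with as few as 39 counts in a library.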
